A study of Mus musculus with 12 samples.

Results

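The genes described here encode 10 ETS family factors other than Ets1: Ets2, Elf1, Elf2, Elf4, Elk3, Elk4, Gabpa, Etv3, Etv6 and Erg. Each was taken as its gene body with 20 kb on each side, and its open regions were the called peaks that overlapped this stretch in any of 12 ATAC-seq libraries. ATAC-seq marks accessible DNA by the places where the Tn5 transposase inserts sequencing adapters. The 12 lists held 577689 peaks that merged into 110642 regions, and 1114 of the peaks, in 211 of the regions, fell to the 10 genes. Of these 211 regions, 19 lay within 1 kb of a listed start of the gene, 129 elsewhere in its body, 30 upstream and 33 downstream. A region in the flanks can belong to a neighbouring gene, and the gene table used here lists no exons, so exonic and intronic positions were not told apart.

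The cells were splenic CD4+ T cells of mice of the strain C57BL/6J, either with the labelled knockout of a super-enhancer of Ets1 (KO) or wild type (WT), and the labels give neither age nor sex. Th1 cells had been cultured for 6 days on plates coated with anti-CD3 together with anti-CD28, IL-12 and IL-2, and Th2 cells for 6 days on such plates with anti-CD28, IL-4 and an antibody against interferon gamma. Naive cells were used without culture. The groups were Th1 KO, Th1 WT, Th2 KO, Th2 WT, naive KO and naive WT, with 2 libraries each.

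The lists held 34746 to 56357 peaks per library, and the number of reads behind them is unknown. The naive libraries are technical replicates of 1 biological sample per genotype by their titles, and their peak names carry another run tag than those of the cultured cells, so run and culture cannot be told apart. The 2 Th2 KO libraries have titles that say Th1, while their source name and peak names say Th2. At Il4 they had 7 and 5 open regions, against 6 and 5 in Th2 WT, 4 and 3 in Th1 KO and 4 and 2 in Th1 WT. Over 5 Th2 marker genes the sums were 38 and 33 in them, 36 and 34 in Th2 WT and 17 to 25 in Th1 libraries. Over 4 Th1 marker genes they had 22 and 19, against 23 and 26 in Th1 KO and 22 and 21 in Th1 WT. The Th1 marker sums thus did not separate them from Th1 WT. They were taken as Th2 KO. All 5 T cell marker genes had open regions in every library, with sums of 23 to 63. At 4 B cell marker genes the sums were 17 and 21 in naive KO, 10 and 8 in naive WT and 4 to 7 in the cultured libraries. Peaks at 4 Y-linked genes were found for 0 and 0 of the genes in naive KO and for 4 and 4 in naive WT, so genotype and sex cannot be told apart in naive cells. These are bulk libraries, in which fewer cells with an open region and less opening per cell cannot be told apart.

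ETS factors share a winged helix-turn-helix domain that binds DNA with a central GGAA, and several members can occupy the same site. Some activate and some repress: GABP, of which Gabpa encodes the DNA-binding subunit, drives many housekeeping genes, Elk3 and Elk4 bind with serum response factor at growth-induced genes, and Etv3 and Etv6 are repressors. In T cells the family is known for the T cell receptor genes and their enhancers, for survival and for cytokine genes.

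The promoters of 6 starts are shown because they span the range of openness, 4 with ETS letters, from each gene that had any, and 2, of Etv6 and Erg, with none. Each is the 250 bases before a start listed in RefSeq (GRCm38.p6), written 5' to 3' along the gene's strand, and capitals mark CCGGAAG or GGAAGT, or the reverse complement CTTCCGG or ACTTCC.
Gabpa (chr16:84834874-84835123, + strand): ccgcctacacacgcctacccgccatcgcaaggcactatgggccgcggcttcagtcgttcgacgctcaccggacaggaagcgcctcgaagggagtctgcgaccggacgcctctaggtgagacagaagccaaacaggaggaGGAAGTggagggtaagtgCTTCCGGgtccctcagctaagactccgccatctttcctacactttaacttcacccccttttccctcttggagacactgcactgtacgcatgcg
Elk4, first start (chr1:132007370-132007619, + strand): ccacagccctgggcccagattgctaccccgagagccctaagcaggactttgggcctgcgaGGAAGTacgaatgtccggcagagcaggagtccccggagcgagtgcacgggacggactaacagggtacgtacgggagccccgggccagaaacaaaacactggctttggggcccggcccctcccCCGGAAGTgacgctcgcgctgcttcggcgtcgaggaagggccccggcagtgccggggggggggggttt
Etv3 (chr3:87525328-87525577, + strand): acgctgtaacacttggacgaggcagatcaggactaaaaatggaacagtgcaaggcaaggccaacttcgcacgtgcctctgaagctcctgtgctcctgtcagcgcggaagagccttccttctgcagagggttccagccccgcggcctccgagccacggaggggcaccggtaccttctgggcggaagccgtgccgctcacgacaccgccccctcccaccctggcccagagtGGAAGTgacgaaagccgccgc
Elf2, inner start (chr3:51277515-51277764, - strand): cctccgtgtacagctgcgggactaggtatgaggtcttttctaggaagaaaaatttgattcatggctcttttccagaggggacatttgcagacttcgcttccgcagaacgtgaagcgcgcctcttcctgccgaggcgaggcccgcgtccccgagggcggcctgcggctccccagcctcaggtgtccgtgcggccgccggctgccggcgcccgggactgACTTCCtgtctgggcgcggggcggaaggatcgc
Etv6 (chr6:134035450-134035699, + strand): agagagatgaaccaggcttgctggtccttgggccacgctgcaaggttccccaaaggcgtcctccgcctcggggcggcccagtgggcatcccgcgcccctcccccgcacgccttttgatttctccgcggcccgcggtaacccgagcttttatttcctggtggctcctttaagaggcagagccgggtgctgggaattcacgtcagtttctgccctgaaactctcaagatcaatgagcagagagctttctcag
Erg, outermost start (chr16:95586594-95586843, - strand): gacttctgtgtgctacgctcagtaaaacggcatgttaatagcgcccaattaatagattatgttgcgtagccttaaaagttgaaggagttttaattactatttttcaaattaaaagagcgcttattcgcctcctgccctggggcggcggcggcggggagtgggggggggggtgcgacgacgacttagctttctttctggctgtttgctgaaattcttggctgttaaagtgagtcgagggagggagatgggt

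By peaks within 1 kb of a listed start, Gabpa had, of the 10 genes, the highest median strength over the 12 libraries (96.1), and Erg had a peak in the fewest libraries. Strength is given here as the percentile of a peak's −log10 q-value within its own list, where 100 is the strongest peak. At the Gabpa start the percentiles were 97.1 and 85.4 in Th1 KO, 95.8 and 96.2 in Th1 WT, 86.8 and 85.4 in Th2 KO, 96.8 and 93.2 in Th2 WT, 96.0 and 97.4 in naive KO, and 97.8 and 96.7 in naive WT. All 12 values were high. Those of Th2 KO overlapped Th1 KO and lay below those of all other groups, in lists that were ranked separately. This separation was not tested. The same region reached the start of Atp5j, an ATP synthase subunit gene on the other side. Erg, a factor of blood stem cells and endothelium, had a peak at its outermost start in 5 libraries, all cultured, with percentiles of 0.0 to 42.8, and none in any library at its other 2 listed starts.

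The start of Etv6, a repressor needed by blood stem cells and known from leukaemia fusions, stood at percentiles of 81.0 to 95.0 in the 8 cultured libraries, 69.0 and 79.2 in naive KO and 53.4 and 57.6 in naive WT. The cultured and naive values did not overlap. Lists of different length were ranked separately, so this describes the standing of the peak in each list and not a change. How many other starts separate in this way was not counted. Etv3 showed the other order. Its start had percentiles of 7.6 to 53.3 in the 5 cultured libraries that had a peak there, and none in Th1 KO 1, Th1 WT 2 and Th2 WT 1, against 55.8 and 56.9 in naive KO and 73.4 and 71.5 in naive WT.

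A peak lay within 1 kb of 11 of the 17 listed starts (64.7%), from 7 of the 10 genes, in every library, against 43.3% of 21045 protein-coding starts. The 3 starts of Elk4 share 1 region, 132007184 to 132008478 on chromosome 1, and each was counted, which raises this share. Those 7 genes were Ets2, Elf1, Elf2, Elf4, Elk4, Gabpa and Etv6. Elk3 had a peak there in 11 libraries. In Th1 WT 2 the peak of its region 93309112 to 93310231 on chromosome 10, which was open in every library, did not come within 1 kb of the start. Elf2 held 2 regions at its inner start, of which 51275877 to 51276759 on chromosome 3 had percentiles of 91.6 to 99.0 in all 12 libraries, as high as at Gabpa. In Th1 KO 1, naive KO 2 and both naive WT libraries its peak did not come within 1 kb of the start, where the strongest peak had 44.1 in Th1 KO 1, 67.4 in naive KO 2, and 58.7 and 47.3 in naive WT. Of the other ETS genes with a listed start, 2 of 11 had a start open in every library, Elk1 with percentiles of 68.9 to 94.5 and Etv5 with 87.0 to 99.4.

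**Figure D1:**
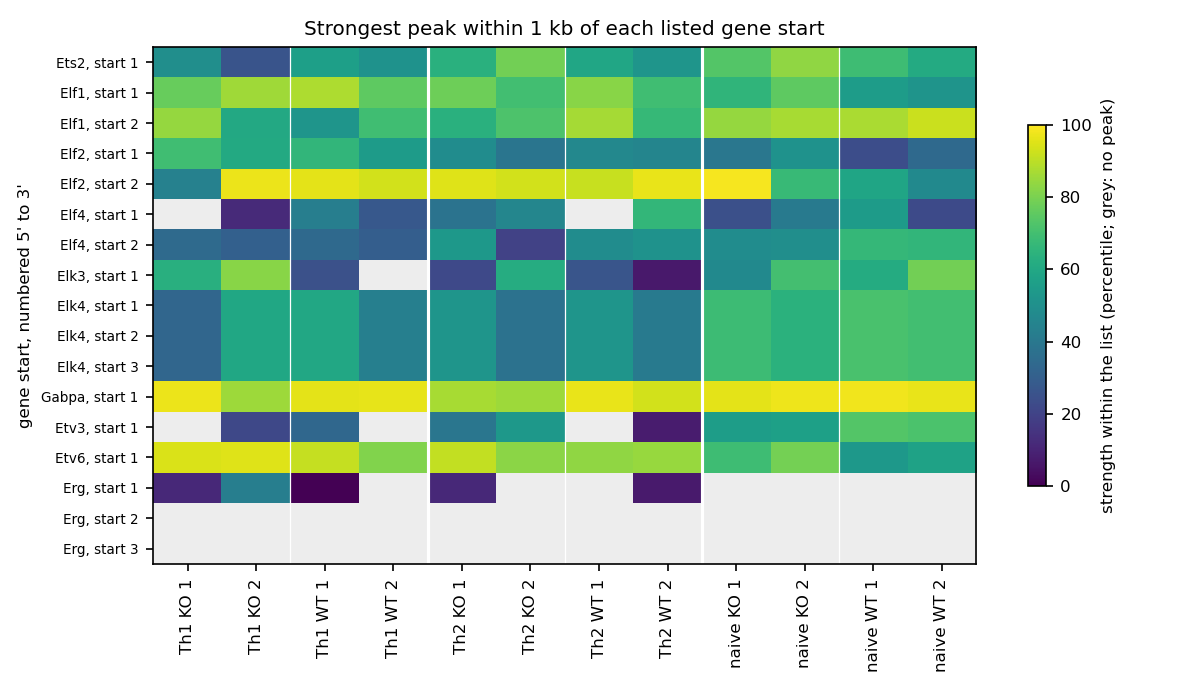
Percentile of the strongest peak within 1 kb of each of the 17 listed starts of the 10 genes (rows, numbered 5' to 3' along the gene) in each library (columns), with grey for no peak. Gabpa stays at 85.4 or above in all 12 libraries, and 2 of the 3 Erg starts are grey throughout.

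GGAAGT on either strand occurred in 6 of the 17 promoters (35.3%), from Elf2, Elk4, Gabpa and Etv3, against 20.5% of all 21045 promoters. CCGGAAG occurred in 2 (11.8%), those of Gabpa and the first start of Elk4, against 9.08%, and in that Elk4 promoter it runs into GGAAGT as shown. TGANTCA, the AP-1 letters, was found in 3 (17.6%, against 6.17%), AGATAA, the GATA letters, in 1 at Erg (5.88%, against 8.84%), and TGTGGTT, the RUNX letters, in 0 (against 3.84%). The 3 Elk4 windows lie close together, and 17 windows are few, so these shares are given as a description. The Etv6 and Erg promoters above hold neither ETS motif, and one of them was open in every library while the other was not.

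With the lists as deposited, every one of the 10 genes had at least 2 regions open in all 12 libraries. Over the 10 genes these were 33 regions (15.6% of 211, against 13.2% of all regions). Elf1 had 7, the most. When each list was cut to its 34746 strongest peaks, called equal lists below, 19 of 166 regions were open throughout (11.4%, against 13.0%). Etv3 had none of these 19. The 33 constant regions of the deposited lists had a median width of 857 bp, against 978 bp for all such regions of the genome and 446 bp for all 211. At the other end, 45 of the 211 regions were called in 1 library alone, with a median width of 247 bp. A region joins the overlapping peaks of its libraries, so one called in more libraries can be wider by construction.

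Polarized cells shared 12 regions that had a peak in all 8 Th1 and Th2 libraries and in no naive library, 25.5% of the 47 regions open in all 8, against 27.6% over the genome. The share lay near that of the genome, but the regions were spread unevenly: Etv6 had 8, Erg 2, Elf1 1 and Gabpa 1, and the other 6 genes had none. Of the 12, 11 were in all 8 cultured libraries with equal lists too, where 12 of 37 regions were polarized-only (32.4%, against 30.9%). These classes over both genotypes were defined after the data had been seen.

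Etv6 (NCBI gene 14011, chromosome 6, 134035700 to 134270158, + strand) covers 234.5 kb and had 57 of the 211 regions. It had 24 and 27 open regions in Th1 KO, 29 and 23 in Th1 WT, 27 and 26 in Th2 KO, 30 and 28 in Th2 WT, 14 and 16 in naive KO, and 25 and 23 in naive WT. Naive KO was lowest, and naive WT overlapped the cultured groups. With equal lists the 8 cultured libraries had 20 to 25 and the 4 naive ones 11 to 15, so that they no longer overlapped, as for 7.39% of 17114 genes in this direction. With the lists as deposited no member was higher in all cultured libraries, against 6.29% of genes.

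The strongest of the Etv6 regions was 134281720 to 134282605, beyond the 3' end of the gene. Its percentiles were 99.1 and 99.7 in Th1 KO, 99.3 and 96.5 in Th1 WT, 96.9 and 99.2 in Th2 KO and 99.1 and 99.7 in Th2 WT, and no naive library had a peak there. It thus ranked among the strongest peaks of each cultured list. The region 134225172 to 134226042, in the gene body, had percentiles of 89.6 to 97.7 in the same 8 libraries. The neighbouring region at 185.1 kb from the gene start was open in all 12 libraries, at 84.5 to 98.9 in cultured cells, 62.0 and 52.9 in naive KO and 7.3 and 38.4 in naive WT. Of the 15 regions of the gene open in all 8 cultured libraries, 8 had no naive peak.

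**Figure D2:**
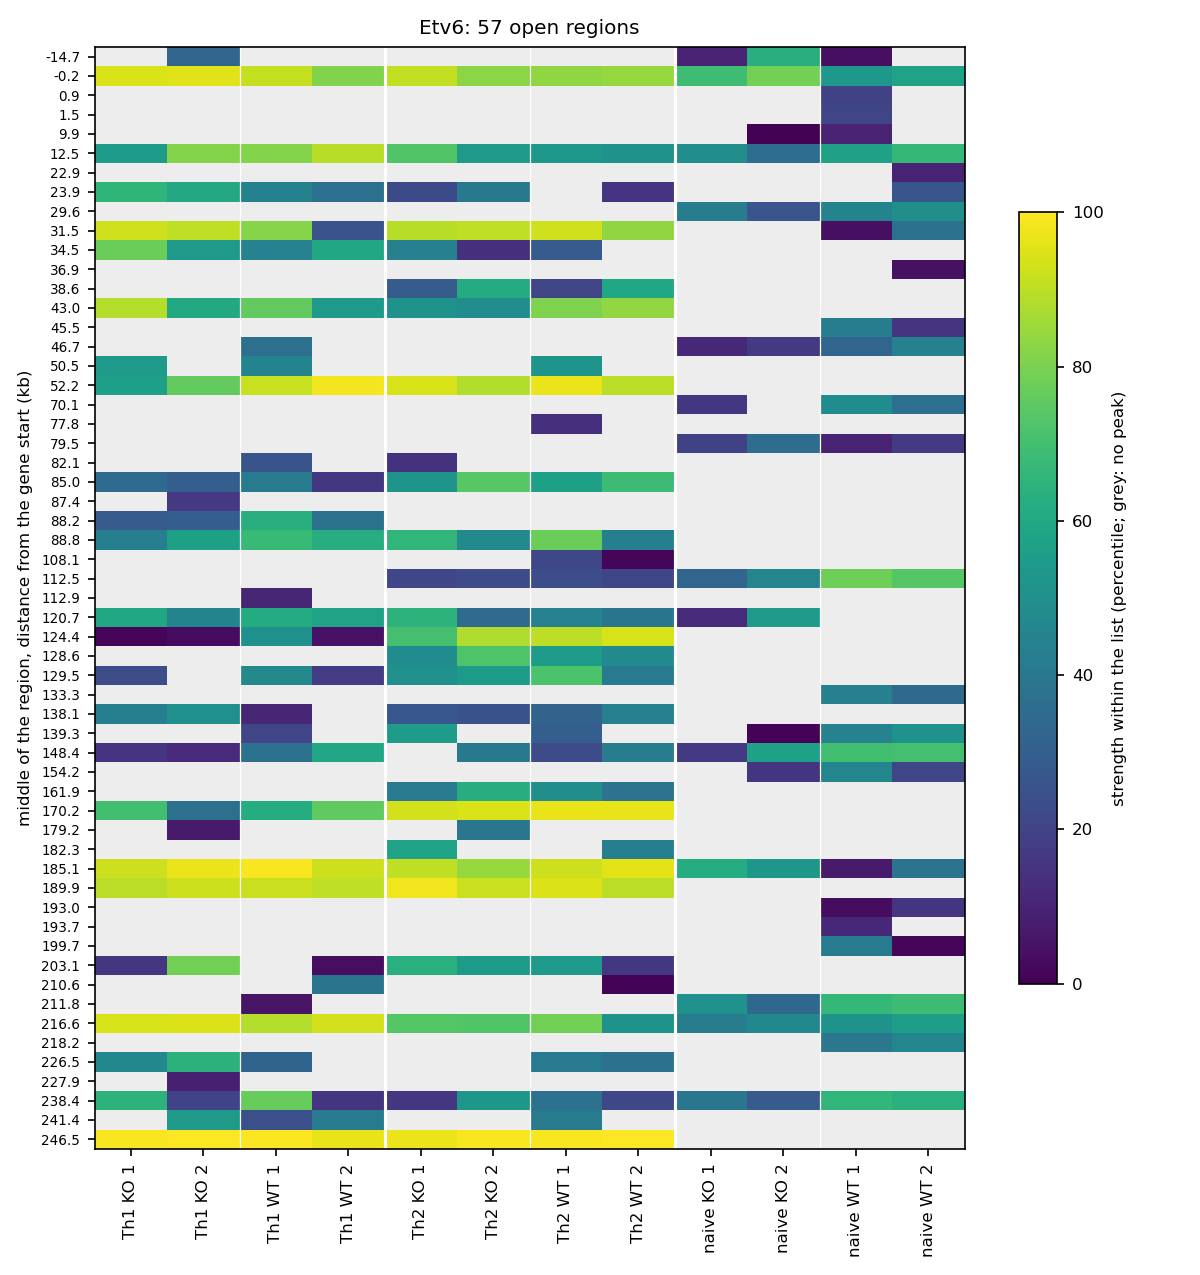
Percentile of each of the 57 open regions of Etv6 (rows, labelled by the distance in kb of the middle of the region from the gene start) in each library (columns), with grey for no peak. The region at 246.5 kb is near the top of all 8 cultured lists and grey in the 4 naive ones.

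Erg (13876, chromosome 16, 95359169 to 95586600, - strand) had 2 strong regions in its body in cultured cells despite its weak starts. The region 95415867 to 95416702 had percentiles of 96.5 and 87.1 in Th1 KO, 91.7 and 95.2 in Th1 WT, 89.7 and 92.9 in Th2 KO and 88.4 and 85.9 in Th2 WT. The region 95435989 to 95437139 had percentiles of 77.1 to 94.0 in the 8 libraries, and neither had a naive peak. At the 3' end of the gene, 95359999 to 95360757 was open throughout, at 88.5 to 98.6 in cultured cells, 68.4 and 80.1 in naive KO and 61.1 and 75.9 in naive WT. Over the whole stretch Erg had 5 to 12 open regions in cultured libraries. Naive KO had 6 and 5 and naive WT had 9 and 8. Both naive groups overlapped the cultured range, but both naive KO libraries lay below both naive WT ones. With equal lists the naive groups met, at 6 and 5 in naive KO and 5 and 4 in naive WT.

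At Gabpa (14390, chromosome 16, 84834891 to 84863783, + strand) the polarized-only region was 84864373 to 84865139, just beyond the 3' end. Its percentiles were 91.6 and 94.4 in Th1 KO, 78.7 and 71.5 in Th1 WT, 92.6 and 91.0 in Th2 KO and 91.7 and 95.8 in Th2 WT. On the other side of the gene, 84824826 to 84825401 had a peak in the 4 naive libraries alone, at 62.7 and 44.5 in naive KO and 79.0 and 81.3 in naive WT. Gabpa thus held 1 region of each kind beside its constant start, with 3 to 5 open regions in every library.

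Naive cells shared 15 regions with a peak in all 4 naive and no cultured library, 23.1% of the 65 open in all 4, against 18.6% over the genome. Elf1, Elk3 and Elk4 had 3 each, Etv6 had 2, Ets2, Elf4, Gabpa and Erg had 1 each, and Elf2 and Etv3 had none. With equal lists 9 of the 15 stayed in all 4 naive lists, and 11 of 51 regions were naive-only (21.6%, against 20.6%). The median width was 780.5 bp for the polarized-only regions and 444 bp for the naive-only ones. The first join peaks of 8 libraries and the second of 4, so these widths differ in part by construction.

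Elk4 (13714, chromosome 1, 132007577 to 132026448, + strand), whose product acts with serum response factor and is known from thymocyte selection, had the clearest naive surplus. It had 4 and 3 open regions in Th1 KO, 4 and 3 in Th1 WT, 6 and 5 in Th2 KO, 4 and 5 in Th2 WT, 7 and 8 in naive KO, and 8 and 9 in naive WT. All naive libraries lay above all cultured ones, as for 6.63% of 17762 genes, and likewise with equal lists (2 or 3 in cultured against 6 to 8 in naive libraries, as for 7.98% of 17114 genes). Beyond its 3' end, 132035510 to 132035951 had percentiles of 65.1 and 70.3 in naive KO and 60.6 and 65.0 in naive WT, and 132038717 to 132039219 had 53.6 and 64.7 in naive KO and 80.4 and 78.8 in naive WT.

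Elk3 (13713, chromosome 10, 93247415 to 93311159, - strand), a repressor that also acts with serum response factor, had 5 and 7 open regions in Th1 KO, 7 and 4 in Th1 WT, 5 and 4 in Th2 KO, 6 and 6 in Th2 WT, 8 and 9 in naive KO, and 12 and 10 in naive WT. The naive libraries were again higher than all cultured ones, but with equal lists the cultured range of 2 to 6 met the naive range of 5 to 10. Its naive-only regions at 48.7 and 49.7 kb from the start had percentiles of 1.8 to 15.5 in naive KO and 39.1 to 71.8 in naive WT. The KO values were lower for both, within lists that were ranked separately.

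Elf1 (13709, chromosome 14, 79481174 to 79582491, + strand), an activator of lymphocyte genes, had 9 and 10 open regions in Th1 KO, 12 and 9 in Th1 WT, 14 and 13 in Th2 KO, 11 and 11 in Th2 WT, 13 and 16 in naive KO, and 18 and 21 in naive WT. Naive WT was highest and naive KO overlapped Th2 KO. Its naive-only region 79521676 to 79522229 had percentiles of 65.8 and 63.8 in naive KO and 85.9 and 80.2 in naive WT. The region 79537338 to 79537928 was open throughout, at 50.7 to 87.1 in cultured cells, 94.4 and 96.6 in naive KO and 98.8 and 99.3 in naive WT. The polarized-only region 79475707 to 79476162 lay upstream, with percentiles of 33.6 to 87.4.

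Ets2 (23872, chromosome 16, 95702407 to 95721049, + strand), the closest relative of Ets1, had 1 naive-only region in its body, 95708104 to 95708576, at percentiles of 64.9 and 79.3 in naive KO and 77.8 and 82.1 in naive WT. Downstream, 95728670 to 95729323 was among the strongest peaks of every library, at 89.6 to 98.9. Elf4 (56501, chromosome X, 48411049 to 48463132, - strand), which restrains the division of CD8 T cells, had 1 upstream of its start at 30.5 to 39.5 in the 4 naive libraries. Elf2 (69257, chromosome 3, 51252720 to 51340683, - strand), a relative of Elf1, had 7 to 11 open regions in cultured libraries, against 9 and 10 in naive KO and 14 and 16 in naive WT. Etv3 (27049, chromosome 3, 87525577 to 87540158, + strand) had 5 to 8 in cultured libraries and 5 or 6 in naive ones.

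**Figure D3:**
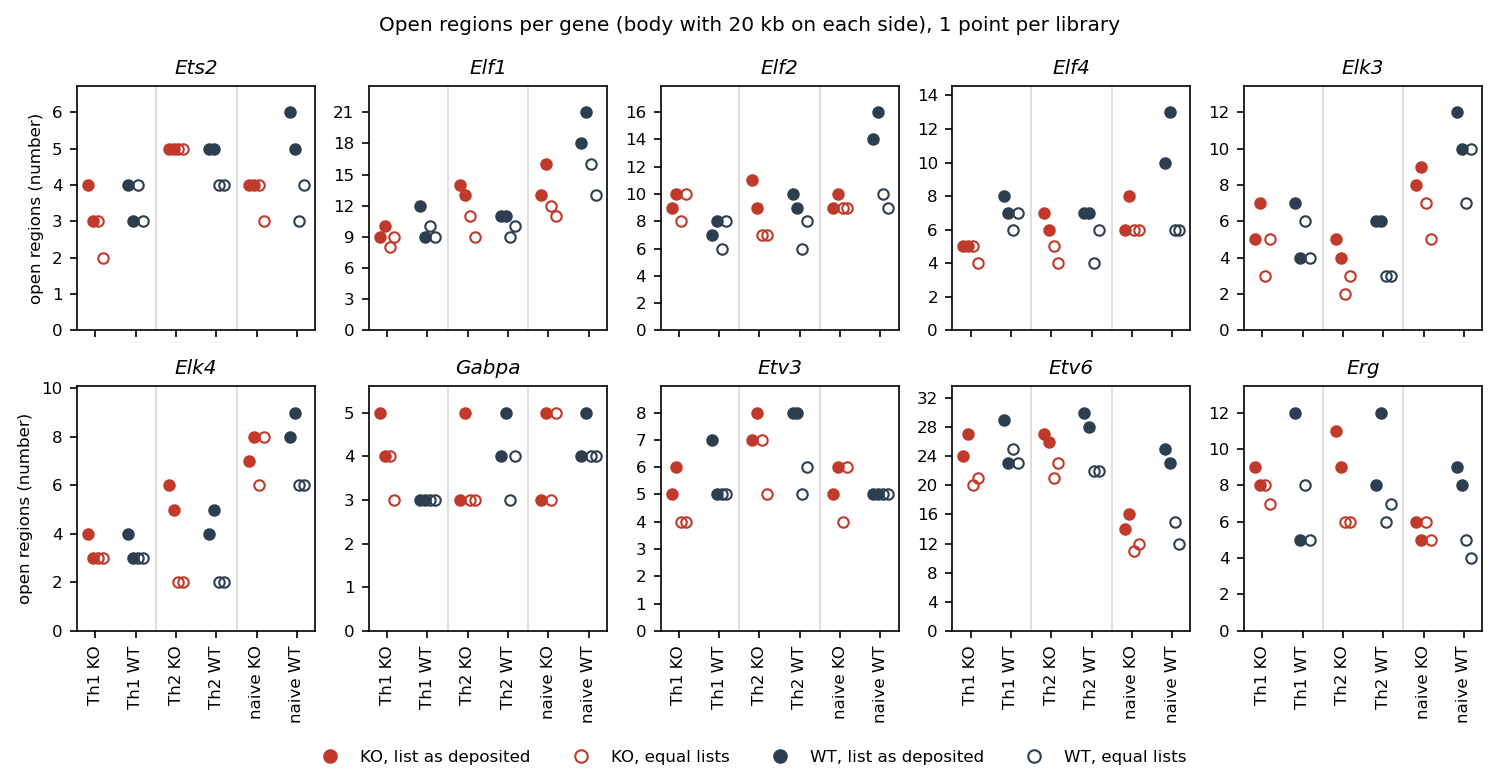
Number of open regions of each gene with 20 kb on each side (vertical axis, 1 panel per gene) in each library, with filled points for the lists as deposited and open points for equal lists of 34746 peaks. Naive points lie above all cultured ones for Elk4 with both kinds of list, and below them for Etv6 with equal lists alone.

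Counted in wild-type cells alone, 20 of 63 member regions open in Th1 cells were absent from naive cells (31.7%, against 33.3% of all regions), and 49 of 101 open in naive cells were absent from Th1 cells (48.5%, against 46.6%). For Th2 cells 35 of 79 were opened (44.3%, against 44.0%) and 47 of 101 were closed (46.5%, against 42.0%). Etv6 supplied 13 of the 20 regions opened in Th1 and 17 of the 35 opened in Th2 cells. Elf1 had 9 of 18 naive regions closed in Th1 and 8 of 18 in Th2 cells, while Etv3 had 0 of 5 in both. With equal lists 24 of 60 regions were opened (40.0%, against 40.6%) and 25 of 65 closed (38.5%, against 39.6%) in Th1 cells. In Th2 cells 27 of 55 were then opened (49.1%, against 47.7%) and 27 of 65 closed (41.5%, against 44.0%). As a group the 10 genes thus lay near the genome in these shares.

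Between Th1 and Th2 cells the members differed by few regions, in shares near those of the genome. With a peak in all 4 Th1 libraries and no Th2 library there was 1 (1.92% of 52, against 1.86%), and with a peak in all 4 Th2 libraries and no Th1 library there were 7 (10.3% of 68, against 7.47%). With equal lists these were 2 (4.35% of 46, against 3.5%) and 2 (4.26% of 47, against 5.32%). The Th1 region was 134123644 to 134124084 in Etv6, at percentiles of 28.3 and 30.0 in Th1 KO and 63.1 and 37.5 in Th1 WT. It stayed in all 4 Th1 libraries with equal lists. A polarized-only region of the same gene, 134124244 to 134124751, lies beside it.

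Of the 7 Th2 regions 4 lay in Etv6 and 1 each at Ets2, Elf1 and Etv3, and 5 had no naive peak either (7.35% of 68, against 6.3%, and with equal lists 2, 4.26% of 47, against 4.93%). In Etv6, 134163929 to 134164659 had percentiles of 48.6 and 72.5 in Th2 KO and 55.1 and 47.8 in Th2 WT, and 134197445 to 134197837 had 41.0 and 62.4 in Th2 KO and 49.5 and 38.2 in Th2 WT. These 2 were the ones that stayed in all 4 Th2 libraries with equal lists. Another Etv6 region, 134147840 to 134148502, was weak in Th2 cells, at 21.0 to 23.7, and was also open in naive KO, at 32.7 and 45.6, and in naive WT, at 77.8 and 73.8. The Etv3 region, 87556625 to 87557100 downstream of the gene, had 47.9 and 67.7 in Th2 KO and 25.4 and 30.9 in Th2 WT.

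Ets2 had 3 upstream regions with a peak in all 4 Th2 libraries and none or fewer of the Th1 libraries. The region 95685647 to 95686157 was the Th2 region of the gene, at 59.6 and 43.0 in Th2 KO and 27.8 and 22.0 in Th2 WT. The region 95698283 to 95698807 had 24.8 and 11.3 in Th1 KO, 38.3 in Th1 WT 1 and no peak in Th1 WT 2, against 96.0 and 87.4 in Th2 KO and 79.6 and 83.6 in Th2 WT. The region 95682203 to 95682777 had 15.6 in Th1 KO 1, none in Th1 KO 2 and 60.8 and 27.9 in Th1 WT, against 71.1 and 67.9 in Th2 KO and 63.0 and 55.4 in Th2 WT. At 95698283 the Th1 values did not reach those of Th2, at 95682203 they overlapped, and none of the 3 had a naive peak. Th1 and Th2 lists differ in length and were ranked separately, so percentiles here and at Etv6 describe the standing of a peak and not a change. How many regions of the genome separate in this way was not counted. In open regions Ets2 had 4 and 3 in Th1 KO and 4 and 3 in Th1 WT, against 5 and 5 in Th2 KO and 5 and 5 in Th2 WT.

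Within Etv6, some regions open in both cell types had the same order. The region 134159873 to 134160420 had 1.7 and 3.4 in Th1 KO and 50.0 and 4.7 in Th1 WT, against 70.4 and 88.0 in Th2 KO and 89.9 and 94.0 in Th2 WT. The region 134205511 to 134206304 had 69.8 and 36.9 in Th1 KO and 61.9 and 75.4 in Th1 WT, against 93.3 and 94.5 in Th2 KO and 96.6 and 96.6 in Th2 WT. The region 134120318 to 134121043 had 35.0 and 29.8 in Th1 KO and 41.7 and 16.1 in Th1 WT. Its values were 51.6 and 74.1 in Th2 KO and 56.9 and 68.7 in Th2 WT. In each of these regions, all Th2 values lay above all Th1 values. The constant region at 216.6 kb had the reverse order, at 89.0 to 94.7 in Th1 and 51.1 to 78.7 in Th2 cells.

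**Figure D4:**
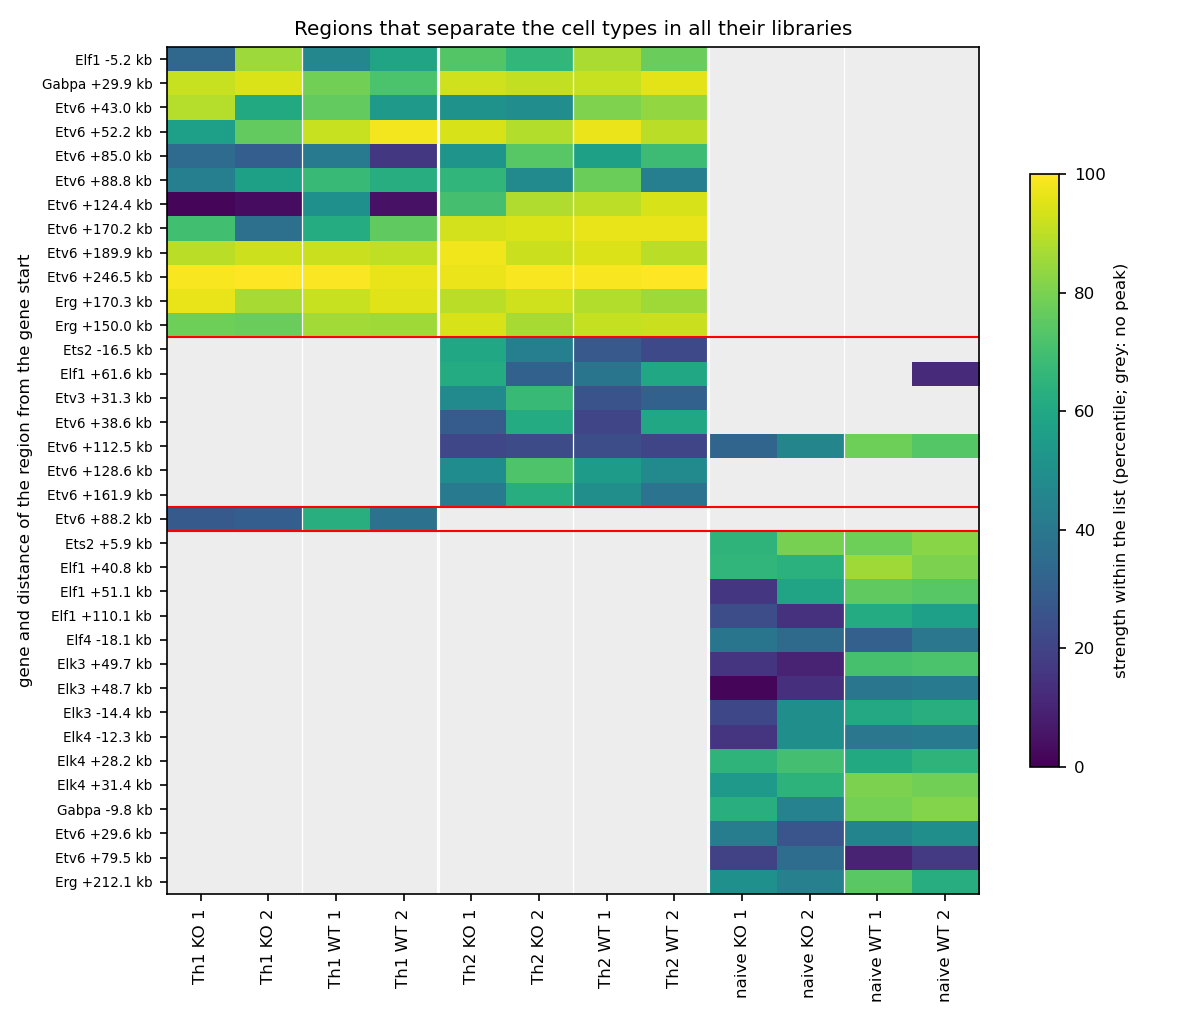
Percentile of the regions that separate the cell types (rows, named by gene and distance of the middle of the region from the gene start) in each library (columns), with grey for no peak. The red lines divide, from the top, the 12 polarized-only regions, the 7 Th2 regions, the Th1 region and the 15 naive-only regions.

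The number of open regions per gene was tested between Th1 and Th2 cells over the 8 cultured libraries with a two-sided exact permutation test on equal lists. None of the 10 members and none of 16713 genes passed Benjamini-Hochberg adjustment, where the smallest adjusted p was 0.632 and the smallest p the 70 arrangements allow is 0.0286. A gene at that p could pass only if a large share of all genes reached it. At an unadjusted p under 0.05 stood 756 genes (4.52%, with 1.96% higher in Th1 cells) and 1 member, Elk4. Elk4 had 3 regions in each of the 4 Th1 and 2 in each of the 4 Th2 equal lists. The lists as deposited turned that order round (mean difference -1.5, exact permutation p = 0.0857). Ets2 had a mean difference of -1.5 regions with both kinds of list, with an exact permutation p of 0.0857 for equal lists and 0.0286 for the lists as deposited, where 9.79% of 17472 genes had a p under 0.05 and 9.4% were lower in Th1 cells. Elk3 had a mean difference of 1.75 regions (exact permutation p = 0.114) and Etv3 of -1.25 (exact permutation p = 0.171), and the other 6 members had an exact p of 0.457 or more.

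By genotype, KO cells had 2 Th1-only regions (3.12% of 64, against 6.82%) and 12 Th2-only regions (15.4% of 78, against 16.2%). WT cells had 1 Th1-only region (1.59% of 63, against 5.85%) and 13 Th2-only regions (16.5% of 79, against 19.9%). Etv6 held all of the Th1-only regions in both genotypes, and 4 of the Th2-only ones in KO and 5 in WT. With equal lists KO cells had 4 Th1-only (8.0% of 50, against 11.1%) and 9 Th2-only regions (16.7% of 54, against 12.6%), and WT cells had 5 (8.33% of 60, against 11.7%) and 6 (10.9% of 55, against 13.8%).

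Loss of the Ets1 super-enhancer was set against wild type within each cell type, and few member regions differed in cultured cells. In Th1 cells 2 regions were lost, meaning open in both WT and no KO library (3.17% of 63, against 3.96%), and 2 were gained (3.12% of 64, against 8.76%). The lost ones were 48466972 to 48467437 upstream of Elf4, at 17.1 and 61.5 in Th1 WT, and 95385344 to 95386092 in Erg, at 83.7 and 19.7 in Th1 WT. Both had a peak in all 4 Th2 libraries. The gained ones were 51289082 to 51289499 in Elf2, at 4.6 and 30.7 in Th1 KO, and 95585211 to 95585913 at the outermost start of Erg, at 11.6 and 42.8 in Th1 KO. With equal lists 6 regions were lost (10.0% of 60, against 6.59%) and 1 was gained (2.0% of 50, against 6.35%).

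In Th2 cells 5 regions were lost (6.33% of 79, against 3.83%) and 0 were gained (0.0% of 78, against 4.56%). Those lost were 2 in Etv6, 134143514 to 134144091 and 134261934 to 134262443, and 1 each at Elk3, Etv3 and Erg. The Etv3 region 87528048 to 87528458 had 47.6 and 39.4 in Th2 WT and no peak in any other library. The lost regions of Th2 cells had a median percentile of 38.5, and the 68 open in all 4 Th2 libraries 63.5. With equal lists 2 were lost (3.64% of 55, against 4.57%) and 3 gained (5.56% of 54, against 4.57%). In Th1 cells the medians were 40.6 for the lost, 21.1 for the gained and 65.6 for the 52 open in all 4. Medians of lost regions are over WT libraries, of gained ones over KO libraries and of the rest over all 4. Weak peaks can more easily go uncalled, so lost and gained regions can be weaker in part by construction.

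Naive KO cells lost 22 of the 101 member regions open in both naive WT libraries (21.8%, against 20.9% of all regions) and gained 4 (5.71% of 70, against 8.67%). By gene, Etv6 lost 6 of 20, Elf2 4 of 14, Elf4 4 of 10, Erg 4 of 7, Elf1 2 of 18, Elk3 1 of 10 and Elk4 1 of 8, and Ets2, Gabpa and Etv3 lost none. Elf4 lies on the X chromosome, and genotype and sex cannot be told apart in naive cells. The X chromosome held 2.35% and 2.37% of the regions in naive KO and 2.52% and 2.46% in naive WT. The lost regions were weak, with a median percentile of 32.8 over naive WT. The 65 open in all 4 naive libraries had 61.9 over all 4. Here too the order can arise in part by construction. At Etv6 the lost region 134066573 to 134067914 had 4.0 and 37.8 in naive WT and was open in all 8 cultured libraries, at 25.7 to 92.7. The Erg region lost in Th1 cells was lost in naive cells too, with 32.6 and 33.0 in naive WT.

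The 4 regions gained in naive KO cells were 1 downstream of Elk4, at 51.3 and 53.7, 1 in Etv6, at 12.3 and 53.9, and 2 in Erg, at 41.5 and 32.8 and at 33.5 and 46.9. The Etv6 one, 134156198 to 134156654, was open in all 8 cultured libraries too. Beside these gains, Ms4a1, the CD20 gene of B cells, had 2 and 2 open regions in naive KO and 0 and 0 in naive WT. Sums over 2 red cell marker genes were also higher, at 8 and 10 in naive KO against 5 and 4 in naive WT. Lower in naive KO were the sums of the T cell markers (35 and 36 against 53 and 63) and of 3 myeloid markers (7 and 8 against 9 and 11). Those of 2 CD8 markers overlapped (6 and 7 against 8 and 6). The part of B cells or other cells in the result was not tested. The naive KO lists were also shorter, at 41075 and 43823 peaks against 52571 and 56195 in naive WT. Their median −log10 q-values were lower too, at 4.93 and 5.67 against 8.2 and 9.78 in naive WT. The cultured lists had medians of 3.39 to 4.14. The part of these differences in the result was not tested. With equal lists 7 member regions were lost (10.8% of 65, against 12.5%) and 5 gained (8.33% of 60, against 13.0%).

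**Figure D5:**
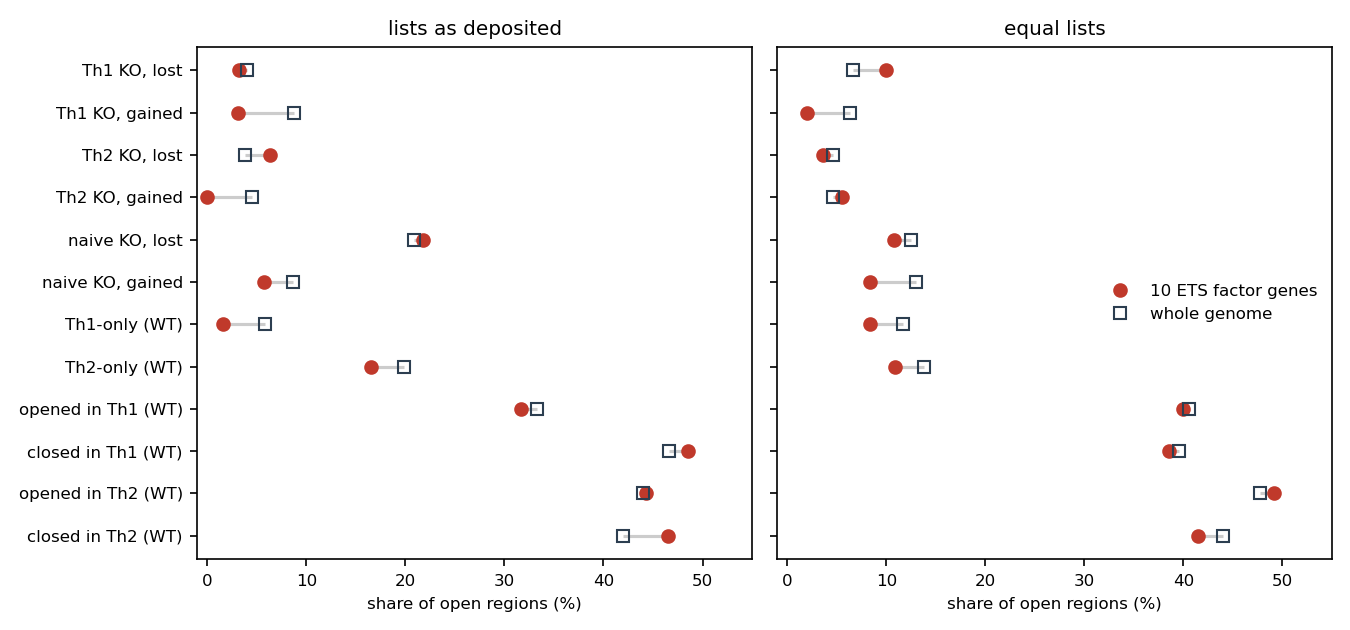
Share of open regions in each class (horizontal axis, %) for the 10 genes (red circles) and for all regions of the genome (blue squares), with the lists as deposited on the left and equal lists on the right. Naive KO losses stand at 21.8% of member regions and 20.9% of all regions on the left, and at 10.8% and 12.5% on the right.

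In number of open regions Elf4 stood lower in Th1 KO cells with both kinds of list, with 5 and 5 in Th1 KO against 8 and 7 in Th1 WT, and with equal lists 5 and 4 in Th1 KO against 6 and 7 in Th1 WT. The KO and WT values did not overlap, which in this direction held for 2.83% of 16918 genes as deposited and for 7.32% of 16418 genes with equal lists. Etv3 and Etv6 were likewise lower with equal lists alone, no member was then higher (against 6.3%), and as deposited Elf2 and Gabpa were higher (against 11.7%). Elf4 lies on the X chromosome, which held 2.49% and 2.48% of the regions in Th1 KO and 2.21% and 2.17% in Th1 WT. In Th2 cells Elf4 had 7 and 6 in KO and 7 and 7 in WT. As deposited, Th2 KO libraries were higher than Th2 WT at Elf1 (against 7.49% of genes) and lower at Elk3 and Etv6 (against 5.3%), and with equal lists higher at Ets2 (against 5.41%) and lower at none (against 5.42%).

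In naive cells 7 members had fewer open regions in both KO than in both WT libraries (Ets2, Elf1, Elf2, Elf4, Elk3, Etv6 and Erg), as had 31.7% of 16519 genes, and none had more (against 5.98%). With equal lists Elf1 alone had fewer, with 12 and 11 in naive KO and 16 and 13 in naive WT, as had 11.6% of 15845 genes, and again none had more (against 14.7%).

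Over Th1 and Th2 cells together, exchanged within cell type, no member or other gene passed the exact permutation test for genotype on equal lists, since the smallest p the 36 arrangements allow is 0.0556, so 0 genes could have an unadjusted p under 0.05. At that smallest p stood 174 of 16713 genes (1.04%) and 0 of the 10 members. Elf4 and Etv6 had the smallest p of the members, with mean differences of -1.25 and -1.75 regions (exact permutation p = 0.222 for both). Within 1 cell type an exact test of 2 against 2 libraries cannot go below 0.333. No member region was lost in all 3 cell types, and none was gained in all 3 (against 0.0521% and 0.00598% of the regions of the genome that could be so called).

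Members also differed in which genes their counts of open regions followed over the 12 equal lists. For each member with enough regions the 2 genes with the highest Pearson r, more than 1 Mb away, were found among 4073 to 4080 genes. Etv6 was followed most closely by Atxn1 (r = 0.971) and Ezh2 (r = 0.965), a histone methyltransferase gene, Elk4 by Eef2 (r = 0.974) and Pacc1 (r = 0.973), and Elk3 by Tex2 (r = 0.961) and Spats2 (r = 0.95). Elf1 was followed by Gm40011 (r = 0.985) and Prlr (r = 0.951), Etv3 by Strn3 (r = 0.947) and Kcnn3 (r = 0.868), and Erg by Myh11 (r = 0.938) and Cd274 (r = 0.873), the gene of PD-L1. For Elf4 these were Tnfrsf25 (r = 0.899) and Plekhg5 (r = 0.88), and for Elf2 Myo6 (r = 0.857) and Dph1 (r = 0.848). The points share the 6 groups and the split by culture, and the values are the highest of all genes searched, so they are a description.

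The 20 kb edge decided a few regions. Just inside it lay a region 19.68 kb from Ets2, called in 1 library, and one 19.67 kb from Elk4, called in 6. Just outside lay one 20.04 kb from Elf1, called in 1 library, and one 20.69 kb from Ets2, 95741740 to 95742548, which had a peak in all 8 cultured and 0 naive libraries.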

How the data were processed

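The data were peak lists from ATAC-seq of mouse CD4+ T cells, 1 list for each of 12 libraries. The submitters' processing notes name BWA, Picard and MACS2 as tools and GRCm38 as the build, without roles or settings. Each list deposited by the authors holds, per peak, a score, a fold enrichment (ratio), a −log10 p-value and a −log10 q-value. Depth is not in the lists, so no counting interval is given. Peaks were ranked by the −log10 q-value inside each list, never across lists.

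Peaks on chromosomes 1 to 19 and X were merged at an overlap of 1 bp, and a library had a region where 1 of its peaks overlapped it. Gene positions and promoter letters came from RefSeq tables of GRCm38.p6, which held all 10 genes, and letters of opposite-strand windows that overlap were checked to be reverse complements (1894 of 1894 pairs). Lost, gained and cell-type regions were counted by presence in all libraries of one side and none of the other, with the same count over the genome beside them. Numbers of open regions per gene were tested with two-sided exact permutation tests on equal lists, adjusted by Benjamini-Hochberg over all protein-coding genes with a region. The test was tested on simulated data. Nothing in the labels says that Th1 and Th2 libraries with the same number share an animal. Named are the 10 members, marker genes and other ETS genes, not all of them with a changed region. The 2 genes nearest in profile to each member with at least 10 regions are named too. The members, lists and classes were chosen with earlier results of these data known. Alternatives were equal lists, a −log10 q-value of at least 2, at least 50% of a region covered, the gene body alone, each replicate left out, and a replicate block. Computation used Python 3.11.15 with pandas 2.3.3, numpy 2.4.6, matplotlib 3.10.9 and scipy 1.17.1.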

Additional observations from a re-analysis of the deposited data

How the results depend on the processing

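Counts of member regions were small and moved with the lists. With equal lists, 7 regions were lost in naive KO cells, 6 lost and 1 gained in Th1 KO cells, 2 lost and 3 gained in Th2 KO cells, 5 were Th1-only and 6 Th2-only in WT, 4 were Th1-only in KO, and 25 were closed in Th1 and 27 in Th2 cells relative to naive cells. At a −log10 q-value of at least 2, 5 were lost in Th1 KO and 1 gained in Th2 KO cells. With at least 50% of a region covered, 4 were lost and 1 gained in Th1 KO cells, 3 gained in Th2 KO cells, and Th1-only regions were 5 in WT and 4 in KO. In gene bodies alone, 1 was lost in Th1 KO cells, Th2-only regions were 8 in WT and 7 in KO, and 13 opened in Th1 and 21 in Th2 cells. Leaving out each replicate in turn gave 24 to 35 lost and 4 to 7 gained in naive KO cells, 5 to 16 and 5 to 10 in Th1 KO cells, and 7 to 10 and 3 to 8 in Th2 KO cells. It gave 3 to 14 Th1-only and 15 to 22 Th2-only regions in WT, 4 to 10 and 15 to 23 in KO, 20 to 39 opened and 51 to 61 closed in Th1 cells, and 35 to 45 opened and 52 to 59 closed in Th2 cells. The highest Th1 values came without Th1 WT replicate 2, the shortest list, with 16 lost, 14 Th1-only and 39 opened; a count that asks fewer libraries to have a peak can only grow. The 12 polarized-only regions were 16 without that list and 12 without the Th2 KO libraries, and the 15 naive-only ones stayed 15 in both. The 33 regions open in every library were 19 with equal lists, 13 with at least 50% of a region covered and 21 in gene bodies alone. With a replicate block 0 members and 0 genes passed for Th type or genotype, the smallest p being 0.125 for 16 arrangements, and correlations of same-numbered libraries were -0.002 to 0.039. No member passed either gene test under any alternative run, where each replicate left out gave 0 to 0. These runs could not show whether the result is stable. The genotype test, the replicate block and wild type alone allow no p under 0.05. For Th1 against Th2, the smallest p of 0.0286 passes adjustment only if a large share of the genes reach it. The equal lists drop the weakest peaks by construction, and the cause of the other moves was not tested. Depth is unknown, so an absent peak means that none was called.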

Other observations

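Among 16 other ETS genes 15 had an open region in some library and 10 had one in every library. Fli1, which lies beside Ets1, had 3 polarized-only and 5 naive-only regions, and Ets1 had 2 and 5. Elf3, an epithelial ETS factor gene, had 1 naive-only region at its start, at percentiles of 31.1 and 31.9 in naive KO and 40.2 and 12.1 in naive WT. Erf, a repressor gene, had 3 regions open in every library. Fev, known from serotonin neurons, had 0 to 3 open regions in cultured libraries and 0 in all 4 naive ones. Spi1, the PU.1 gene of myeloid and B cells, had 2 or 3 open regions in cultured libraries, 5 and 6 in naive KO and 7 and 7 in naive WT. Its naive libraries thus lay above all cultured ones, as for 6.63% of 17762 genes. Spic had none in any library.

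Among these genes, naive KO cells lost 8 regions at Ets1, 2 at Fli1, 2 at Spi1 and 1 each at Elf5 and Etv5 (14 of 73 open in both naive WT libraries, 19.2%), and gained 2 at Ets1, 2 at Fli1 and 1 each at Etv1, Spi1 and Spib (7 of 56, 12.5%). The 20.9% and 8.67% of all regions stand beside these shares, and no difference was tested.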
